A study of Homo sapiens with 10 samples.

Results

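Of 9951 assembled units that carried a gene name, lay on an autosome and had at least 2 FPKM in control total RNA, 87 had a higher level in all 3 comparisons of the study: siPAP total over control total, siPAP nuclear over control nuclear and LALA nuclear over control nuclear RNA. The 87 members (0.874%) were chosen on these measured values, by a log2 ratio of group means of at least 0.58 (a 1.49-fold difference) in each comparison, after noncoding RNA names, zinc finger and histone names and 12 listed genes had been left out. FPKM is the number of sequenced fragments of a unit per kilobase of its exons and scaled to the mapped fragments of its library, so levels of different genes can be set side by side. Each value is the authors' mean over the 2 libraries of a group, and the table used here has no value of a single library, so no SD, interval or test accompanies any value. Since the 3 ratios chose the members, they are a description and support nothing by themselves.

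HEK293, a cell line of human embryonic kidney origin, gave the poly(A)+ RNA of all 10 libraries, as the labels name it. In siPAP cells, siRNAs against both canonical poly(A) polymerases, called PAPα and PAPγ, had been present for 3 days, and both total and nuclear RNA were sequenced. LALA cells were a stable line, whose parental line bears a name of its own in the study's methods, with a genomic copy of a dominant negative form of PABPN1, which binds poly(A) in the nucleus, driven by a tetracycline-responsive promoter and switched on by removing doxycycline 3 days before harvest, and were sequenced as nuclear RNA. Control cells were sequenced as total and as nuclear RNA, and the study's figure legends call them untreated. No control siRNA is named for these libraries, so siRNA transfection and knockdown of the polymerases cannot be told apart in the siPAP comparisons. The nuclear fraction is what remained after lysis of the cells with detergent, and both nuclear comparisons share the same control libraries. LALA, the stable line that carries it and the removal of doxycycline cannot be told apart in the LALA comparison.

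Canonical poly(A) polymerases add the poly(A) tail to RNA cleaved just after a poly(A) signal. PABPN1 binds the new tail in the nucleus and stimulates its extension. Besides this role in making mRNA, both take part in a nuclear decay pathway in which RNAs that stay in the nucleus receive long tails and are removed by the exosome, a complex that degrades RNA from its 3′ end. Many promoters give rise to RNA in both directions, and the RNA made upstream and antisense to the gene is usually short-lived. Antisense RNAs and such upstream RNAs are known substrates of this pathway.

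The knockdown was visible in the targeted genes. PAPOLA, which encodes PAPα, had 10.97 FPKM in siPAP total against 79.27 FPKM in control total RNA, and PAPOLG, which encodes PAPγ, had 3.64 against 12.2 FPKM. The unit that joins PABPN1 with its neighbour BCL2L2 had 162 FPKM in LALA nuclear and 99.6 FPKM in siPAP nuclear against 89.1 FPKM in control nuclear RNA. The epithelial keratins KRT8 and KRT18 lay between 164 and 255 FPKM in the 5 groups and VIM between 230 and 352 FPKM. CDH2, the gene of N-cadherin, and the neurofilament gene NEFL were lower in siPAP cells, with log2 ratios of -1.26 and -0.77 in total and -1.57 and -0.76 in nuclear RNA, and had -0.28 and -0.13 in LALA nuclear RNA. The leukocyte gene PTPRC and the endothelial gene PECAM1 were at 0.0228 FPKM or less. PAX2 and NEFM, listed as markers of the line, were nearly absent too, at 0.1674 and 0.4765 FPKM or less. LHX1, of the same list, lay between 1.661 and 2.300 FPKM. The fibroblast gene COL1A1 lay between 1.505 and 1.943 FPKM. Over all 9951 units, 2.76% were at least 0.58 higher and 6.32% at least 0.58 lower in siPAP total RNA, 3.01% higher and 7.36% lower in siPAP nuclear RNA, and 1.68% higher and 4.96% lower in LALA nuclear RNA, and the median log2 ratios were -0.09, -0.12 and -0.21. Centring each comparison on its median turned this balance in both nuclear comparisons and brought it near even in siPAP total RNA. After it, 401 units were higher and 427 lower in siPAP total RNA. In siPAP nuclear RNA they were 469 and 427, and in LALA nuclear RNA 344 and 105. As deposited, the numbers were 275 and 629, 300 and 732, and 167 and 494. A level scaled to the library is relative, so less RNA per cell and fewer copies of one RNA cannot be told apart.

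The 87 units carried 84 names. TBC1D8 named 3 of them and TRIM52 named 2, 4 units carried 2 joined names, and the name of 1 unit had been turned into a date by a spreadsheet program, so that it is called here by its assembly number, XLOC_021630. Levels were low to moderate. Control total levels ran between 2.04 and 31.4 FPKM with a median of 5.14 FPKM, against a median of 17.0 FPKM over all 9951 units, and 71 of the 87 lay below 10 FPKM. The log2 ratios of the members ran between 0.58 and 2.71 in siPAP total RNA (median 0.94), between 0.60 and 2.35 in siPAP nuclear RNA (median 1.11) and between 0.59 and 2.26 in LALA nuclear RNA (median 0.94). In 23 members all 3 ratios reached 1.

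A gene name on a unit did not always mean that the unit was that gene's mRNA. The assembly numbers run along each chromosome once per strand, which gives the strand of a unit. Over 19278 units whose name occurs once on the autosomes, 99.5% lay on the strand that GENCODE gives for the gene. Among the members, 83 could be matched to a GENCODE gene and 57 of these lay on the strand of that gene. The other 26 (31.3% of the matched members) lay on the opposite strand, so that they run antisense to the gene whose name they carry. This share was 18.6% with a minimum of 5 FPKM and 63.6% at a threshold of 1. Where GENCODE lists another gene on the strand of such a member, whether the unit belongs to that gene cannot be told from the table. Over all 9900 matched units, opposite-strand units made up 0.859%. Put the other way, 30.6% of the 85 opposite-strand units were members, and 0.581% of the own-strand units. The members' direction was fixed by the rule, so this share is given as a description of what the rule selected, and no test was made of it. The 59 opposite-strand units outside the members had median log2 ratios of 0.33 and 0.42 in total and nuclear RNA of siPAP cells and of 0.16 in LALA cells, each above the median of all units.

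In each of the 26 cases the table also held a unit of the same name on the annotated strand, 24 different units in all because TBC1D8 has 3 antisense members. These own-strand units had median log2 ratios of 0.06 and -0.05 in total and nuclear RNA of siPAP cells and of -0.14 in LALA cells. Of the 20 with at least 2 FPKM in control total RNA, 2 reached 0.58 in siPAP total RNA. In siPAP nuclear RNA 3 did so, and 2 in LALA cells. Over all 9951 units the shares were smaller, at 2.76%, 3.01% and 1.68%. For 18 of the 26 antisense members the own-strand unit was the more abundant one in control total RNA. In most cases the antisense unit was thus the rarer of the pair and higher in the perturbed cells, while the mRNA stayed near its control level. The table lists the span of all overlapping units of a locus and not the ends of each, so whether an antisense unit lies within the gene or upstream of it cannot be read from it.

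**Figure D1:**
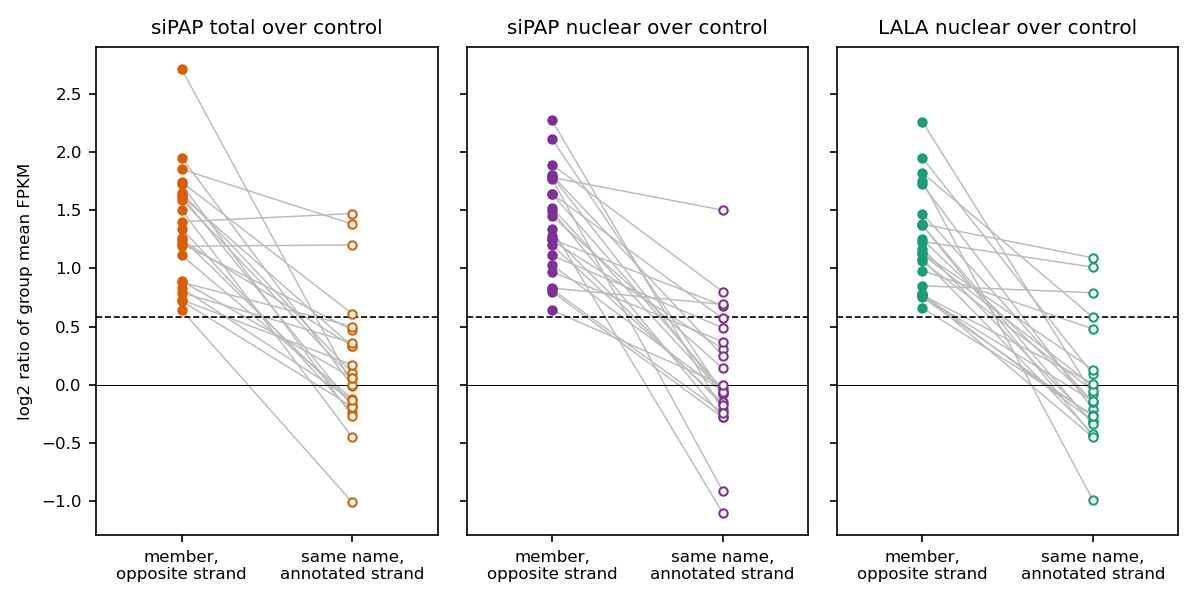
Log2 ratios of group mean FPKM (y axis) for antisense members (left, filled) and for the unit of the same name on the annotated strand (right, open), joined by lines, in the 3 comparisons, with 1 antisense unit shown per name. The dashed line marks 0.58. All filled points lie above it because the rule chose them, and most of the open points lie near 0.

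ZMPSTE24, a protease gene that matures prelamin A, shows the pattern most plainly. The member, antisense to ZMPSTE24 within chr1:40722096-40759856 (hg19), had 26.4 FPKM in siPAP total against 8.403 FPKM in control total RNA, and 36.8 in siPAP nuclear and 25.3 in LALA nuclear against 10.6 FPKM in control nuclear RNA. The ZMPSTE24 mRNA unit had 62.4 FPKM in siPAP total against 58.1 FPKM in control total RNA, and 85.8 in siPAP nuclear and 81.6 in LALA nuclear against 90.4 FPKM in control nuclear RNA. The antisense unit was 1.25 or more higher on the log2 scale in every comparison, and the log2 ratios of the mRNA lay between -0.15 and 0.10.

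RMND1, a gene for mitochondrial translation at chr6:151685250-151773316, behaved in the same way. Its antisense member had 12.3 FPKM in siPAP total against 3.18 FPKM in control total RNA, and 12.8 in siPAP nuclear and 8.75 in LALA nuclear against 2.66 FPKM in control nuclear RNA. The mRNA unit had 12.1 against 12.2 FPKM in total RNA and 11.1 and 11.1 against 12.9 FPKM in nuclear RNA. In siPAP cells the antisense unit therefore reached the level of the mRNA, which did not move in total RNA. GENCODE lists no gene on the antisense strand across RMND1.

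MTRF1L, a mitochondrial release factor gene at chr6:153291658-153452389, had the member with the largest lowest ratio. The antisense unit had 8.18 FPKM in siPAP total against 2.44 FPKM in control total RNA, and 10.4 in siPAP nuclear and 9.97 in LALA nuclear against 2.82 FPKM in control nuclear RNA. The log2 ratios were 1.74, 1.89 and 1.82. The MTRF1L mRNA unit was also higher, but by less. It had 36.1 against 23.6 FPKM in total RNA, and 34.7 in siPAP nuclear and 29.6 in LALA nuclear against 19.9 FPKM, and it missed the rule by its LALA ratio of 0.578. Another pair of units named MTRF1L on the antisense strand, below 2 FPKM in control total RNA, also passed the 3 ratios, with control total levels of 0.654 and 0.442 FPKM against 2.04 and 1.65 FPKM in siPAP total RNA.

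TBC1D8, a gene for a Rab GTPase-activating protein at chr2:101618691-101767846, faces RPL31, a ribosomal protein gene, and TBC1D8-AS1 on the other strand in GENCODE. Its most abundant antisense member had the highest level of any member in the perturbed cells, though not in control cells, with 83.2 FPKM in siPAP total against 12.7 FPKM in control total RNA, and 163 in siPAP nuclear and 105 in LALA nuclear against 37.8 FPKM in control nuclear RNA. A second had 9.03 against 5.22 FPKM in total RNA, and 11.4 in siPAP nuclear and 15.3 in LALA nuclear against 6.16 FPKM. The third had log2 ratios of 0.97, 1.05 and 1.27. A further antisense unit of this name, with 24.6 FPKM in control total RNA, was more abundant there but not a member. Its log2 ratios were 0.39, 0.95 and 0.85. The TBC1D8 mRNA unit stayed between 4.32 and 4.79 FPKM in all 5 groups. The first unit had its higher nuclear ratio in siPAP cells, the other two in LALA cells.

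PCF11, a gene for a subunit of the cleavage complex that makes mRNA 3′ ends, lies at chr11:82868019-82967044. GENCODE lists PCF11-AS1 and ANKRD42-DT on the strand of the member. The antisense member had 8.49 FPKM in siPAP total against 3.68 FPKM in control total RNA, and 10.1 in siPAP nuclear and 22.3 in LALA nuclear against 4.66 FPKM in control nuclear RNA. The LALA ratio, 2.26, was the highest LALA ratio of all members and 1.14 above the siPAP nuclear ratio. The PCF11 mRNA unit had 39.4 against 28.4 FPKM in total RNA, and 43.9 in siPAP nuclear and 29.7 in LALA nuclear against 31.4 FPKM, so it was flat in the cells in which the antisense unit was highest.

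HGS encodes an endosomal sorting protein. The member antisense to it was among those with the largest nuclear excess, with 10.1 FPKM in siPAP total against 3.28 FPKM in control total RNA, and 16.6 in siPAP nuclear and 18.7 in LALA nuclear against 7.24 FPKM in control nuclear RNA, while the HGS mRNA had log2 ratios between -0.44 and -0.15. GENCODE lists ARL16 on the strand of this member. Antisense to GTF3C2, which encodes a subunit of the RNA polymerase III factor TFIIIC, the member had 12.4 against 4.14 FPKM in total RNA, and 12.7 in siPAP nuclear and 7.82 in LALA nuclear against 4.63 FPKM, while the mRNA stayed between -0.14 and 0.14. GENCODE lists GTF3C2-AS1 and GTF3C2-AS2 on that strand. Both units were well above control in each comparison, and the unit at GTF3C2 was among those with the largest excess of the siPAP over the LALA ratio.

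The antisense units of CAMK1, C8orf40, KANK3, LRRC37A2 and ZFPM2 differed in level and in their response to LALA. At CAMK1, a calcium-dependent kinase gene that faces the DNA repair gene OGG1, the member had 9.34 against 5.67 FPKM in total RNA, and 13.2 in siPAP nuclear and 19.2 in LALA nuclear against 7.44 FPKM. At C8orf40, which faces SLC20A2, it had 7.50 against 2.28 FPKM in total RNA, and 8.49 in siPAP nuclear and 4.66 in LALA nuclear against 2.72 FPKM. These units differed in opposite ways between the perturbations, CAMK1 being 0.54 higher and C8orf40 0.87 lower in LALA than in siPAP nuclear RNA on the log2 scale. At KANK3, which faces the ribosomal protein gene RPS28, the member had 6.82 against 4.37 FPKM in total RNA, and 7.72 in siPAP nuclear and 6.67 in LALA nuclear against 3.05 FPKM. At LRRC37A2, in a duplicated region, it had 9.15 against 4.25 FPKM in total RNA, and 8.85 in siPAP nuclear and 9.83 in LALA nuclear against 2.54 FPKM. Other LRRC37A2 units on the same strand were not members. In siPAP total RNA XLOC_012431 had -3.49 and XLOC_012434 -1.11, and the rest had between 0.23 and 0.47. The members at KANK3 and LRRC37A2 were less abundant in nuclear than in total RNA of control cells, unlike most members. ZFPM2, a cofactor of GATA factors, lent its name to a unit with 31.7 against 19.1 FPKM in total RNA, and 38.3 in siPAP nuclear and 41.3 in LALA nuclear against 24.5 FPKM, the most abundant of the antisense members in control total RNA.

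PNLIPRP1 names a pancreatic lipase relative that HEK293 cells hardly express. Its own-strand unit had 0.0641 FPKM or less in total RNA and 0.0756 FPKM or less in nuclear RNA, while the antisense member had 7.55 FPKM in siPAP total against 2.87 FPKM in control total RNA, and 10.01 in siPAP nuclear and 9.88 in LALA nuclear against 2.94 FPKM in control nuclear RNA. Further antisense members carry the names NRG4, GMEB2, KANSL1L, DOCK1, PRKACB, C2orf49, ABHD16B, HERPUD2, SEC24C and TRIM52. On the strand of the member GENCODE lists FBXO22 at NRG4, RPE and KANSL1L-AS1 at KANSL1L, INSYN2A at DOCK1 and HERPUD2-AS1 at HERPUD2. Their lowest log2 ratios ran between 0.77 (SEC24C) and 1.38 (TRIM52). The mRNA units of KANSL1L, DOCK1, PRKACB and HERPUD2 had no ratio above 0.06, that of C2orf49 ran between 0.33 and 0.57, and that of SEC24C between 0.01 and 0.37. ABHD16B and NRG4 were exceptions. The own-strand unit of ABHD16B had 0.50, 0.69 and 0.79, and that of NRG4, at 1.22 FPKM in control total RNA and so below the level rule, had ratios of 1.20, 0.68 and 1.01.

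TRIM52, which encodes a RING ubiquitin ligase of the tripartite motif family at chr5:180673493-180689051, was the single locus with members on both strands. The antisense unit had 11.3 FPKM in siPAP total against 3.14 FPKM in control total RNA, and 13.2 in siPAP nuclear and 10.1 in LALA nuclear against 3.85 FPKM in control nuclear RNA. The own-strand unit had 15.8 against 6.07 FPKM in total RNA, and 18.96 in siPAP nuclear and 14.2 in LALA nuclear against 6.70 FPKM. Both strands were at least 1.09 higher on the log2 scale in each comparison. GENCODE places the start of TRIM52-AS1 79 bases from that of TRIM52, in the other direction. Of 33 TRIM family units measured, 3 were past 0.58 in total RNA of siPAP cells, 2 in their nuclear RNA and 2 in LALA cells, beside 2.76%, 3.01% and 1.68% of all units, and both LALA units were these 2. A further 2 were lower by 0.58 or more in siPAP total RNA.

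Among the 57 own-strand members, 47 were protein-coding in GENCODE (82.5%, against 98.6% of all own-strand units), 6 were long noncoding RNAs and 4 were pseudogenes. The 6 are C1orf213 (ZNF436-AS1 in GENCODE), GLUD1P3, DKFZP434I0714 (MIR4453HG), C9orf37 (ARRDC1-AS1), NS3BP (GATD1-DT) and C15orf37 (ST20-AS1). The name rule worked on the older symbols. Several of the protein-coding members encode proteins with well-known roles. TNFRSF12A encodes Fn14, the receptor of the cytokine TWEAK. It lies at chr16:3070313-3072383 and had 55.5 FPKM in siPAP total against 18.98 FPKM in control total RNA, and 78.6 in siPAP nuclear and 59.5 in LALA nuclear against 28.2 FPKM in control nuclear RNA. It had the largest ratios of the 8 most abundant members, with log2 ratios of 1.55, 1.48 and 1.08. It was also the single unit at least 0.58 higher among 11 of the TNF receptor superfamily in each comparison, beside 2.76%, 3.01% and 1.68% of all units. TNFRSF10D, a decoy receptor of TRAIL, was lower, with -0.74 in siPAP total and -0.83 in siPAP nuclear RNA, and had 0.14 in LALA nuclear RNA. The list of 16 target genes of the Hippo pathway factors YAP and TEAD holds TNFRSF12A too. Of these genes, 3 were past 0.58 in total RNA of siPAP cells, 1 in their nuclear RNA and 3 in LALA cells. The shares over all units are again 2.76%, 3.01% and 1.68%. IGFBP3 of this list was lower in siPAP nuclear RNA, with -0.72. The others past 0.58 were ANKRD1 and CYR61 in siPAP total and CTGF and CYR61 in LALA nuclear RNA, with ratios between 0.58 and 0.74.

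VAMP1 and VAMP2, the synaptobrevins, are vesicle SNARE proteins that drive membrane fusion. VAMP1 had 10.5 FPKM in siPAP total against 5.14 FPKM in control total RNA, and 12.7 in siPAP nuclear and 13.3 in LALA nuclear against 5.51 FPKM in control nuclear RNA. VAMP2 had 12.3 against 6.39 FPKM in total RNA, and 12.7 in siPAP nuclear and 12.0 in LALA nuclear against 5.80 FPKM. Both genes were about as high in LALA as in siPAP nuclear RNA. Of 35 SNARE proteins and partners, 2 were past 0.58 in total RNA of siPAP cells, 4 in their nuclear RNA and 3 in LALA cells. These counts stand beside 2.76%, 3.01% and 1.68% of all units. The medians of the list were 0.03, 0.05 and -0.15, beside -0.09, -0.12 and -0.21 over all units. SNAP23 was lower in siPAP nuclear RNA, with -0.60. The target-membrane SNARE gene STX3 came close, with 0.58, 0.66 and 0.47.

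XRCC2 encodes a DNA repair protein that acts in homologous recombination. At chr7:152336485-152373327 it had 62.1 FPKM in siPAP total against 27.8 FPKM in control total RNA, and 95.5 in siPAP nuclear and 62.6 in LALA nuclear against 41.6 FPKM in control nuclear RNA. MCM9, a helicase gene with a role in the same repair pathway, had ratios of 0.59, 0.63 and 0.72. SOCS4, a substrate adaptor of a ubiquitin ligase that restrains cytokine and growth factor signalling, had 37.8 against 19.7 FPKM in total RNA, and 46.4 in siPAP nuclear and 31.8 in LALA nuclear against 21.0 FPKM. Of its 6 measured relatives including itself, SOCS5 was also past 0.58 in siPAP nuclear RNA (0.64) but not in LALA nuclear RNA (0.01). Over all units 3.01% were past it in siPAP nuclear RNA. SOCS2 was lower, with -0.69 in siPAP total and -0.79 in siPAP nuclear RNA. The medians of the 6 were -0.08, 0.01 and 0.02.

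ZBTB26 and ZBTB5 encode transcription factors with a BTB domain and zinc fingers. ZBTB26 had 20.4 FPKM in siPAP total against 7.58 FPKM in control total RNA, and 30.2 in siPAP nuclear and 18.3 in LALA nuclear against 9.64 FPKM in control nuclear RNA. ZBTB5 had 17.3 against 8.06 FPKM in total RNA, and 20.3 in siPAP nuclear and 14.9 in LALA nuclear against 9.17 FPKM. Of 35 genes of this class, 4 were past 0.58 in total RNA of siPAP cells, 6 in their nuclear RNA and 2 in LALA cells. Over all units the shares were 2.76%, 3.01% and 1.68%. The 2 in LALA were these members. ZBTB18 was lower, with -0.90 in siPAP total and -0.80 in siPAP nuclear RNA. ZBTB37 and ZBTB4 had 0.87 and 0.77 in siPAP nuclear but -0.01 and 0.13 in LALA nuclear RNA. Both members were higher in siPAP than in LALA nuclear RNA.

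MOAP1, whose protein binds the death effector BAX, and TMEM251, now called LYSET, a gene needed to tag lysosomal enzymes, are neighbours that point away from each other. Their loci, chr14:93648541-93651249 and chr14:93651296-93657803, are 47 bases apart. MOAP1 had 14.1 FPKM in siPAP total against 8.12 FPKM in control total RNA, and 16.9 in siPAP nuclear and 14.7 in LALA nuclear against 9.04 FPKM in control nuclear RNA. TMEM251 had log2 ratios of 0.88, 1.09 and 0.86, against 0.79, 0.90 and 0.70 for MOAP1. Both genes of this pair were higher in the perturbed cells, which was not so at the other divergent promoters described next. Among 18 BCL2 family members and partners, 1 unit was past 0.58 in total RNA of siPAP cells, 2 in their nuclear RNA and 2 in LALA cells. Over all units the shares were 2.76%, 3.01% and 1.68%. MCL1 had 0.61 in siPAP nuclear RNA. The other one in LALA was the joined BCL2L2 and PABPN1 unit, and LALA cells carry an added copy of PABPN1 in mutant form. Which of the joined genes gave the reads cannot be told from its level. BMF was lower in LALA nuclear RNA, with -0.65.

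The start of 20 of the 57 own-strand members (35.1%) lay within 1000 bases of the start of a gene that runs the other way, against 28.4% of all own-strand units. The partner was protein-coding for 15 members (26.3%, against 14.2%). These shares were not tested. For 13 of the pairs the neighbour had a measured unit, and apart from MOAP1 none reached the threshold: the 12 other neighbours had log2 ratios between -0.50 and 0.29 in total RNA of siPAP cells, between -0.60 and 0.44 in their nuclear RNA and between -0.44 and 0.32 in LALA cells. At these promoter regions the member was higher in the perturbed cells, while the gene in the other direction was near its control level or below.

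TIGD1, a gene derived from a transposase, and EIF4E2, which encodes a cap-binding relative of the translation factor eIF4E, start 132 bases apart. TIGD1 had 7.74 FPKM in siPAP total against 2.90 FPKM in control total RNA, and 9.97 in siPAP nuclear and 12.8 in LALA nuclear against 4.06 FPKM in control nuclear RNA. EIF4E2 had 89.2 against 87.2 FPKM in total RNA, and 85.8 in siPAP nuclear and 75.6 in LALA nuclear against 84.6 FPKM. The rarer RNA of the pair was at least 1.30 higher on the log2 scale and the abundant one was within 0.16 of its control. SOCS4 and WDHD1, a replication gene, start 137 bases apart, and WDHD1 had ratios of -0.32, -0.38 and -0.44. C11orf71 lies 155 bases from RBM7, a subunit of a complex that brings RNAs to the nuclear exosome, and had ratios of 0.78, 1.25 and 1.24, while RBM7 had -0.26, -0.13 and -0.04.

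C9orf37, a long noncoding RNA named ARRDC1-AS1 in GENCODE, starts 99 bases from the histone methyltransferase gene EHMT1. It had 41.3 FPKM in siPAP total against 24.7 FPKM in control total RNA. In nuclear RNA it had 46.4 in siPAP and 48.3 in LALA against 27.3 FPKM in control cells. DKFZP434I0714, a single-exon noncoding RNA 172 bases from FBXW7, a ubiquitin ligase gene, had 16.2 against 3.12 FPKM in total RNA, and 20.8 in siPAP nuclear and 7.86 in LALA nuclear against 4.09 FPKM. Its siPAP nuclear ratio of 2.35 was the highest of all members, and its LALA ratio of 0.94 was 1.40 lower, the widest gap among the members. FBXW7 was lower in all 3 comparisons (-0.26, -0.60 and -0.43). In the remaining pairs the members C17orf67, PDZD7, C17orf100, C11orf68, METTL21B, C21orf58 and TIGD7 faced DGKE, SFXN3, MED31, DRAP1, METTL1, PCNT and ZNF75A.

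**Figure D2:**
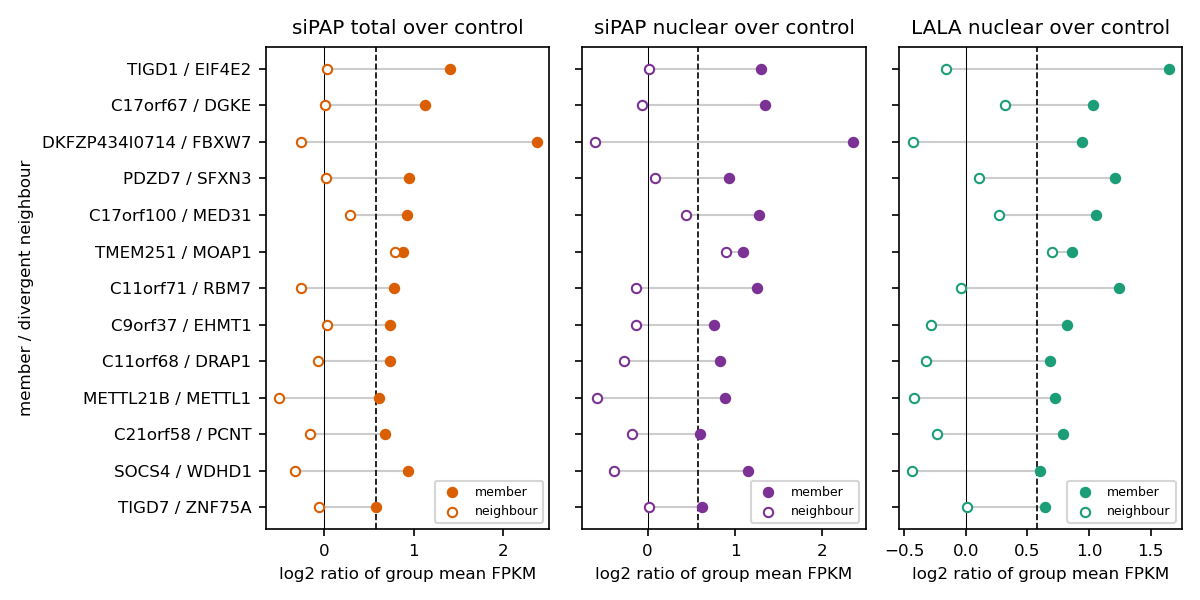
Log2 ratios of group mean FPKM (x axis) of members (filled) and of the genes that start within 1000 bases in the other direction (open), for 13 pairs in 3 comparisons. The dashed line marks 0.58. MOAP1 is the single open point to its right in each panel, and it is itself a member.

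The promoters of 3 such members and of XRCC2, whose start has no such neighbour, are shown as examples of the DNA at which these RNAs begin (RefSeq, GRCh38.p14, 250 bases before to 50 after the start, on the strand of the gene). TIGD1 is at chr2:232550508-232550807, minus strand, C11orf71 at chr11:114400462-114400761, minus strand, MOAP1 at chr14:93184848-93185147, minus strand, and XRCC2 at chr7:152676092-152676391, minus strand. Capitals mark 5 short motifs, searched on either strand. The GC box was searched as GGGCGG and the CAAT box as the letters CCAAT. The TATA box was searched as TATAAA, and for the cAMP response element the letters were TGACGTCA. An ETS site was searched as CCGGAAG. Overlapping matches run together.
TIGD1: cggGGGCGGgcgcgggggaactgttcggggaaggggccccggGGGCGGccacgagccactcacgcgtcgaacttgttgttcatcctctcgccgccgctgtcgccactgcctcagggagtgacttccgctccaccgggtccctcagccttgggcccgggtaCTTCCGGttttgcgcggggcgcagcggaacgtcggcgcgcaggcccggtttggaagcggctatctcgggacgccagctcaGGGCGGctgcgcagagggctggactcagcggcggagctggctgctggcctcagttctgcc
C11orf71: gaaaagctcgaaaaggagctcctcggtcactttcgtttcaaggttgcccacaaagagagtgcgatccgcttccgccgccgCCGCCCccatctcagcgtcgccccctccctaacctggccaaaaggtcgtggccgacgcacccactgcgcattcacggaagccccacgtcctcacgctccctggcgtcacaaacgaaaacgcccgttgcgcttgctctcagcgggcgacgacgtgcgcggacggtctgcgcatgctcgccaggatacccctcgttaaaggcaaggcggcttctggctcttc
MOAP1: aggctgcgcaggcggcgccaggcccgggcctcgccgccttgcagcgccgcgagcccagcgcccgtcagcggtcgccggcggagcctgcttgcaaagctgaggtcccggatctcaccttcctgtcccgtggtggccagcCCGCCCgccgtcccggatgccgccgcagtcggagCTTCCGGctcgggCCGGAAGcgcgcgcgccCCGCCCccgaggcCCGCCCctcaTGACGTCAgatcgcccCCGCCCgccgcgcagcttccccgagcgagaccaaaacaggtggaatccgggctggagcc
XRCC2: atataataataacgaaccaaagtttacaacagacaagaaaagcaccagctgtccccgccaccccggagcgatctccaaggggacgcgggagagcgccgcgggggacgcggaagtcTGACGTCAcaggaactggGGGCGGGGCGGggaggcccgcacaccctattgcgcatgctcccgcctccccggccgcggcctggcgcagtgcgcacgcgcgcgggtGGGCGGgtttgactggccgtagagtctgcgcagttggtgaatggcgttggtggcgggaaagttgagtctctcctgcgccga
All 4 windows hold a GC box, MOAP1 and XRCC2 also a cAMP response element, and TIGD1 and MOAP1 an ETS site. A promoter was found for 43 members on their own strand. GGGCGG occurred in 76.7% of these, in 73.3% of the 7995 promoters of own-strand units at this level and in 44.7% of all 26246 autosomal promoters. CCAAT occurred in 27.9%, 36.9% and 35.4%, TATAAA in 11.6%, 4.89% and 12.0%, TGACGTCA in 4.65%, 3.61% and 2.00%, and CCGGAAG in 23.3%, 20.3% and 10.7%. With 5 members holding TATAAA and 2 holding TGACGTCA, these shares rest on few genes, and a match is not a known binding site.

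At the other end of these genes lies the poly(A) signal, a short way before the site at which the RNA is cut. A poly(A) polymerase then acts on the cut end. In the last 50 bases of the GENCODE transcript, 38 of the 47 protein-coding own-strand members had AATAAA or ATTAAA on the sense strand (80.9%, against 82.8% of 9659 units at this level). AATAAA was present in 57.4%, against 67.2%, and ATTAAA alone in 23.4%, against 15.6%. The differences come to a few genes and were not tested. Stretches of 30 bases around the signal are printed for 5 members with a known protein, in the direction of the gene, with the signal in capitals. They lie at chr16:3072349-3072378 (plus strand), chr17:8062472-8062501 (minus), chr14:55516169-55516198 (plus), chr9:37438113-37438142 (minus) and chr1:155112374-155112403 (minus) of GRCh37, the same assembly as hg19.
TNFRSF12A: ggagaatttattAATAAAagaatctttaac
VAMP2: gtgaaaatgtacAATAAAtgtgtaatgagt
SOCS4: catttctacttaATTAAAacttcctatgta
ZBTB5: tgagatttttgaAATAAAaaatttgtcata
DPM3: ctcccatttcccATTAAAgagccagtttat
SOCS4 and DPM3 carry the ATTAAA form, and the other 3 the AATAAA form.

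The own-strand members had few exons. The median was 4 exons in the GENCODE transcript with most exons, against 10 over all own-strand units at this level, and 30 of the 57 (52.6%) had up to 4 exons, against 13.7%. Single-exon genes made up 10.5% of these members and 1.36% of all such units, and with the longest transcript in place of that with most exons 19.3% and 2.98%. Within protein-coding units, 2.75% of 109 single-exon units were members, 1.68% of 1189 units with 2 to 4 exons, 0.413% of 3146 with 5 to 9, 0.225% of 3558 with 10 to 19 and 0.179% of 1676 with 20 or more. The medians of all units in these bins differed little in siPAP total RNA, between -0.10 and -0.08. In siPAP nuclear RNA they ran between -0.03 for single-exon units and -0.14 for those with 10 to 19 exons, and in LALA nuclear RNA between -0.08 for single-exon units and -0.23 for those with 20 or more. 

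**Figure D3:**
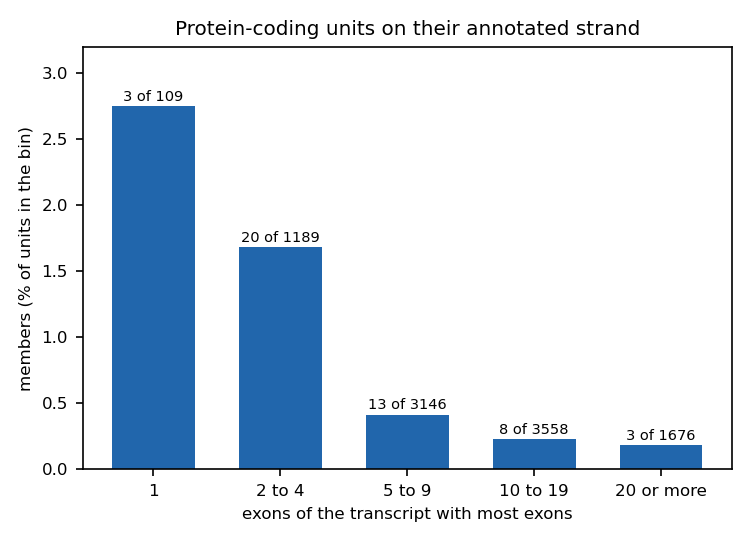
Members as a percentage of protein-coding units on their annotated strand (y axis), by the number of exons of the transcript with most exons (x axis). Numbers above the bars are members of all units in the bin. The share is 2.75% for single-exon units and 0.179% for units with 20 exons or more.

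The 6 single-exon members were CTAGE7P, TIGD1, DKFZP434I0714, TRAM1L1, PPAPDC2 and C15orf37. CTAGE7P, a processed pseudogene, had 7.47 FPKM in siPAP total against 2.60 FPKM in control total RNA, and 9.48 in siPAP nuclear and 9.23 in LALA nuclear against 2.32 FPKM in control nuclear RNA. TRAM1L1, a paralog of the translocon gene TRAM1, had 5.58 against 2.56 FPKM in total RNA, and 8.29 in siPAP nuclear and 7.40 in LALA nuclear against 4.43 FPKM. PPAPDC2, now PLPP6, encodes a lipid phosphatase and had 21.6 against 12.8 FPKM in total RNA, and 30.04 in siPAP nuclear and 27.9 in LALA nuclear against 17.6 FPKM. CTAGE7P had the largest lowest ratio of these. C15orf37, a long noncoding RNA named ST20-AS1 in GENCODE, had 3.76 against 2.50 FPKM in total RNA. It had 4.21 in siPAP nuclear and 4.14 in LALA nuclear against 2.70 FPKM, just above the threshold in each comparison.

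The most abundant members in control total RNA were KIAA0907, XRCC2, SEC14L1, C9orf37, SOCS4, DPM3, ZFPM2 and TNFRSF12A. KIAA0907, now KHDC4, encodes an RNA-binding protein with a KH domain and had 50.01 FPKM in siPAP total against 31.4 FPKM in control total RNA, and 56.7 in siPAP nuclear and 51.6 in LALA nuclear against 33.1 FPKM in control nuclear RNA. SEC14L1, a gene for a lipid transfer protein relative, had 41.1 against 24.9 FPKM in total RNA, and 46.5 in siPAP nuclear and 40.8 in LALA nuclear against 23.9 FPKM. DPM3, a subunit of the enzyme that makes dolichol phosphate mannose, had 37.9 against 19.7 FPKM in total RNA, and 44.2 in siPAP nuclear and 48.6 in LALA nuclear against 24.0 FPKM. KIAA0907 and SEC14L1 have 14 and 20 exons, so the short gene structure of DPM3 (2 exons) is not shared by all abundant members.

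The unit that joins AMY2B, a pancreatic amylase, with RNPC3, a protein of the minor spliceosome, had 26.7 FPKM in siPAP total against 16.6 FPKM in control total RNA, and 35.6 in siPAP nuclear and 29.6 in LALA nuclear against 18.8 FPKM in control nuclear RNA. The joined name does not say which gene gave the reads. It was the single unit past 0.58 among 10 minor spliceosome units in each comparison, beside 2.76%, 3.01% and 1.68% of all units. C1orf213, a long noncoding RNA named ZNF436-AS1 in GENCODE, had ratios of 2.09, 2.14 and 1.73. It had 9.35 against 2.19 FPKM in total RNA, and 10.6 in siPAP nuclear and 7.97 in LALA nuclear against 2.41 FPKM. At the same locus ZNF436, on the facing strand, had -0.29, -0.18 and 0.02. SCARNA15, a unit named after a small Cajal body RNA at chr15:83419279-83426103, had 26.0 against 9.60 FPKM in total RNA, and 37.5 in siPAP nuclear and 36.2 in LALA nuclear against 11.9 FPKM. It could not be matched in GENCODE by its symbol, and neither could MGC21881, FLJ37453 and XLOC_021630.

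Facing units were looked at for all own-strand members. TRIM52 has a member on both strands. Apart from it, the table held 26 units of at least 2 FPKM on the facing strand, at 20 loci. None of the 26 reached 0.58 in any comparison, where the highest were 0.55, 0.55 and 0.27, and 3 were lower by at least 0.58 in siPAP total and 3 in siPAP nuclear RNA. Examples are USP39 across from C2orf68 (-0.12, -0.20 and -0.13) and PCNT across from C21orf58 (-0.15, -0.18 and -0.23). Below 2 FPKM, units facing ZBTB26, MCM9 and TIGD1 did reach 0.58 in every comparison. They had control total levels of 1.74, 0.413 and 0.444 FPKM and log2 ratios of at least 1.49.

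Both perturbations were compared in nuclear RNA. In 64 of the 87 members the siPAP ratio exceeded the LALA ratio, and in 23 the LALA ratio was the higher. The median LALA-minus-siPAP difference was -0.14 on the log2 scale, -0.16 for own-strand and -0.14 for antisense members, beside -0.09 over all 9951 units. The comparisons share their control libraries, so their ratios are not independent. The members furthest toward LALA were PCF11, LRRC37A3, CAMK1, the TBC1D8 unit with 5.22 FPKM in control total RNA, and TIGD1. The most abundant TBC1D8 member lay on the siPAP side, with a difference of -0.64. Those furthest toward siPAP were DKFZP434I0714, C8orf40, C12orf76, ZBTB26 and GTF3C2. LRRC37A3 had 8.38 FPKM in siPAP total against 5.28 FPKM in control total RNA, and 10.8 in siPAP nuclear and 15.8 in LALA nuclear against 5.84 FPKM in control nuclear RNA. C12orf76 had 11.5 against 4.83 FPKM in total RNA, and 16.1 in siPAP nuclear and 9.44 in LALA nuclear against 4.63 FPKM. Each group holds own-strand and antisense members.

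**Figure D4:**
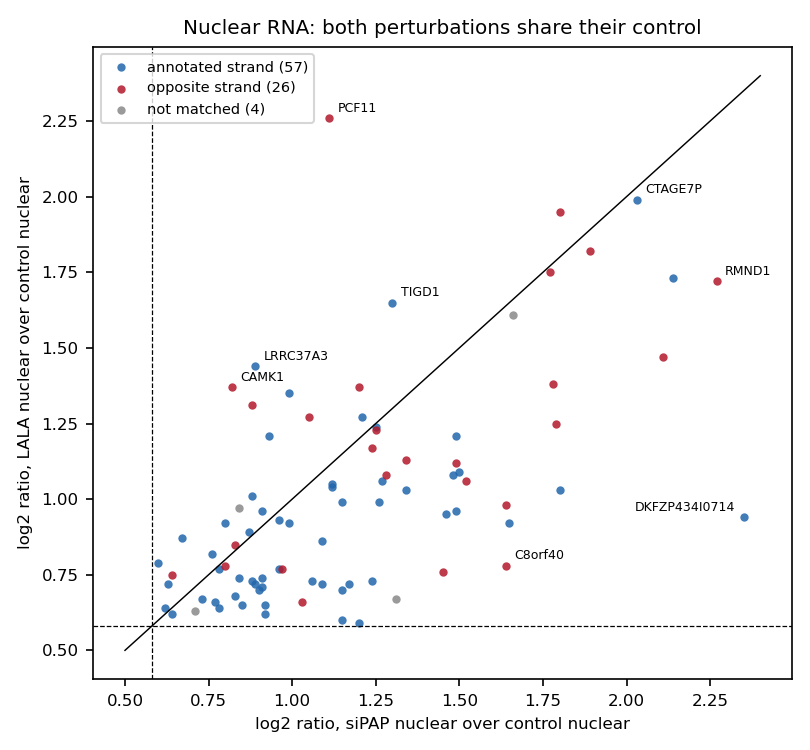
Log2 ratio over control nuclear RNA in LALA nuclear (y axis) and siPAP nuclear RNA (x axis) for the 87 members, with 57 on their annotated strand, 26 on the opposite strand and 4 not matched. Dashed lines mark 0.58 and the solid line equal ratios. The rule and the shared control place all points in the upper right, and 64 lie below the solid line.

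The rule did not use the ratio of nuclear to total RNA within one kind of cell. In siPAP cells 82 of the 87 members had more FPKM in nuclear than in total RNA (94.3%, against 40.9% of all 9951 units), and the median log2 ratio of nuclear over total was 0.28, against -0.06. In control cells 69 had more in nuclear RNA (79.3%, against 42.2%), with a median of 0.15 against -0.05. For own-strand members the medians were 0.27 in siPAP and 0.14 in control cells, and for antisense members 0.30 and 0.25. The levels in this ratio are the same as those in the rule, so it is not independent of the selection. The members were thus modestly more nuclear than most units in control cells already. Their ratios ran between -0.74 (LRRC37A2) and 1.58 (the most abundant TBC1D8 member).

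The most nuclear members in control cells were the most abundant TBC1D8 member, HGS, EID2B, TFPI and TRAM1L1. EID2B, a relative of the EID inhibitors of differentiation, had 11.2 FPKM in siPAP total against 3.01 FPKM in control total RNA, and 17.1 in siPAP nuclear and 12.01 in LALA nuclear against 6.20 FPKM in control nuclear RNA. TFPI, the inhibitor of the tissue factor pathway of blood clotting, had 16.1 against 9.50 FPKM in total RNA, and 31.9 in siPAP nuclear and 27.8 in LALA nuclear against 17.7 FPKM. In TFPI the nuclear level was higher than the total level by 0.99 in siPAP and 0.90 in control cells. A higher nuclear level was not particular to members. In control cells every TNF receptor superfamily unit outside the members had it too. TNFRSF1A had 63.2 against 40.9 FPKM and TNFRSF10A 12.3 against 6.68 FPKM. The cause was not tested. The least nuclear were LRRC37A2, KANK3, RMND1, IL18BP and NS3BP. IL18BP, a decoy receptor of interleukin 18, had 5.77 against 3.40 FPKM in total RNA, and 5.46 in siPAP nuclear and 4.43 in LALA nuclear against 2.89 FPKM. NS3BP had 4.65 against 2.98 FPKM in total RNA, and 7.13 in siPAP nuclear and 5.87 in LALA nuclear against 2.54 FPKM, so that it was less abundant in nuclear than in total RNA of control cells and more abundant in siPAP cells.

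**Figure D5:**
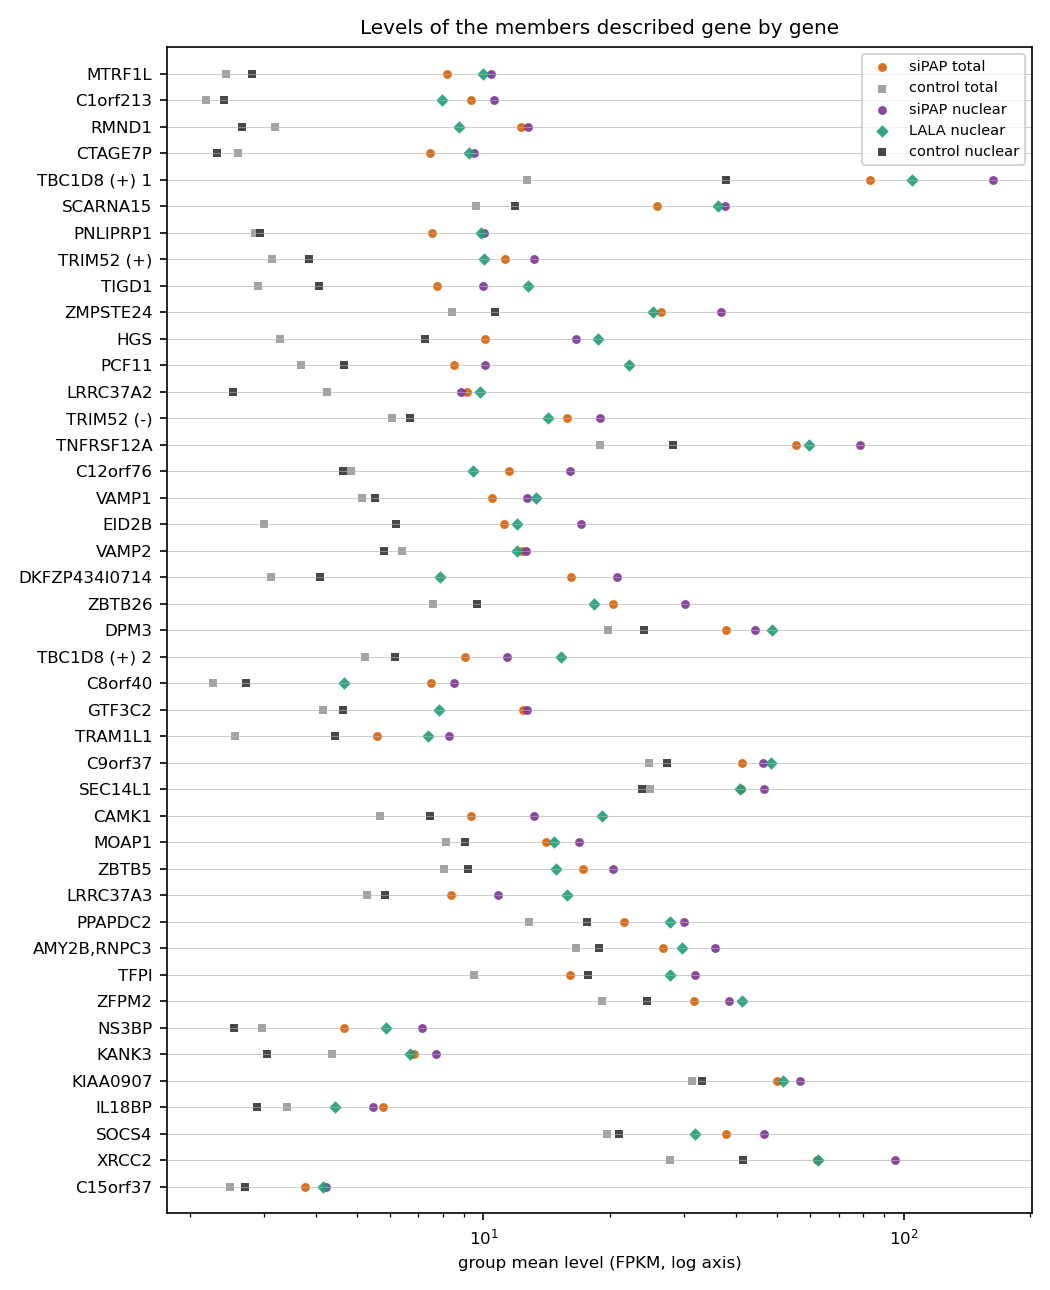
Group mean levels in FPKM (x axis, log scale) of the 43 members described with all 5 values, ordered by their lowest ratio from the top. TRIM52 is shown by strand, and the TBC1D8 units are numbered. In every line the siPAP total point lies right of the control total square, and the siPAP and LALA nuclear points lie right of the control nuclear square, as the rule requires.

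The other own-strand members had lowest ratios between 0.58 and 1.03. Those with a known function include FOSL1, a subunit of the AP-1 transcription factor (0.69, 0.73 and 0.67), ATAT1, the enzyme that acetylates tubulin (1.03, 0.88 and 0.73), RHOF, a small GTPase of filopodia (0.97, 1.06 and 0.73), RGS5, a regulator of G protein signalling (0.72, 0.99 and 0.92), and PPP1R3E, which targets protein phosphatase to glycogen (0.79, 0.67 and 0.87). FOSL1 and C11orf68 are 16239 bases apart on chromosome 11. METTL21B, a methyltransferase of a translation elongation factor, had 0.62, 0.89 and 0.72. The joined units BST1 with FAM200B, L3MBTL1 with SGK2 and PDZD7 with SFXN3 had lowest ratios of 0.71, 0.67 and 0.93. Further members were C17orf67, C2orf68, EPB41L4A, C17orf100, KHDC1, C5orf54, FSD1L, C11orf71, JRK, LY6G5B, CYB561D1, C11orf68, C1QTNF6, C21orf58, MCM9 and TIGD7. SUZ12P1, GLUD1P3, STAG3L2 and STAG3L3 are copies of other genes, and like LRRC37A2 and LRRC37A3 they share sequence with near-identical copies, so reads could have been assigned to the wrong copy.

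Lists of gene families with no member held between 0 and 2 units at least 0.58 higher in each comparison, beside 2.76%, 3.01% and 1.68% of all units, and in lists this short a single unit is a larger share than that. Of 10 interferon-stimulated genes none was at least 0.58 higher in any comparison, while STAT2 had -0.62 in siPAP total and IRF7 -0.88 in siPAP nuclear RNA. Of 10 ETS transcription factors ETS1 alone was, with 0.95 in siPAP total and 1.00 in siPAP nuclear RNA, and it had 0.56 in LALA nuclear RNA. Of 30 Bardet-Biedl syndrome and ciliary gate genes BBS10 was past it in siPAP total (1.04) and siPAP nuclear RNA (1.28) but had 0.56 in LALA nuclear RNA, and 3, 3 and 2 genes of that list were lower by 0.58 or more. KLHL3, of 23 Kelch-like adaptors, had 0.19, 1.35 and 0.76. Of 9 activin and FGF modulators FSTL3 had 0.81, 0.71 and 0.52 and SPRED2 0.67, 0.51 and 0.34. ETS1, BBS10 and FSTL3 thus missed membership by the LALA ratio.

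The members just inside the threshold were TIGD7, C15orf37 and XRCC2, with lowest ratios of 0.584, 0.589 and 0.592. Just outside it were BANP with 0.579, the MTRF1L mRNA unit with 0.578 and the joined EFCAB13 and MRPL45P2 unit with 0.578. XRCC2 was near the threshold through its LALA ratio alone, having 1.16 and 1.20 in siPAP total and nuclear RNA.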

How the data were processed

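Stranded libraries of polyadenylated RNA were mapped with TopHat2, assembled with Cufflinks on the hg19 build and quantified with Cuffdiff by the authors. FPKM values are as deposited, 1 mean over 2 libraries for each of 30809 units and 5 groups, and each mean read was the same in every pairing of groups that held it. The deposited table also holds the authors' fold changes, test statistics, p-values and q-values, which were not used. Read depth and the strand setting of the assembly are not given in the sources used here. Intervals, limits of detection and tests were therefore not computed.

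Log2 ratios were computed from group means with no pseudocount, in Python 3.11.15 with pandas 2.3.3 and numpy 2.4.6. Members had a control total FPKM of at least 2 and 3 ratios of at least 0.58. The members, the gene lists and the rules were chosen with earlier results of these data known. Members received all 5 values when among the 10 largest lowest ratios, the 8 highest control total levels, the 5 largest LALA-minus-siPAP differences in each direction, the 5 most or least nuclear, the single-exon members or a family list. Names, strands, exons and 3′ ends were taken from GENCODE 44 on GRCh37, and older symbols were matched through a symbol table. A unit's strand was read from the order of assembly numbers along each chromosome. Promoters are from RefSeq on GRCh38.p14. A member that the counts include is not reported by name here. The selection code was run on simulated data in which the planted members lay above the threshold and all other units below it. This checks the code only and says nothing of noise in the measured values. Alternatives were other level minimums, pseudocounts, a higher threshold, centring and other exon counts.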

Additional observations from a re-analysis of the deposited data

How the results depend on the processing

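No paired analysis was possible because the table holds group means only, and for the same reason no replicate could be left out. Depth per library is unknown, so the precision of low levels cannot be given. Of 64 counts, shares and medians computed under alternatives, 44 kept within 1.5 times of the reported count, or within 0.1 of the reported log2 median. The balance of higher and lower units is not among the 64. Under centring it turned in both nuclear comparisons but not in siPAP total RNA. The median nuclear over total ratio of the members stayed between 0.14 and 0.20 in control cells and between 0.27 and 0.34 in siPAP cells.

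With a minimum of 1 FPKM there were 148 members, among them all 87, and 280 units higher in LALA nuclear RNA. With a minimum of 5 FPKM there were 45 members, and 166 and 181 units were higher in total and nuclear RNA of siPAP cells and 89 in LALA cells. At a threshold of 1 there were 23 members, 60, 72 and 50 units were higher, and 8, 11 and 5 list genes. Adding 0.1 or 1 FPKM left 85 or 69 members. Centring on the median of all units gave 148 members, 469 units higher in nuclear RNA of siPAP cells and 344 in that of LALA cells, and 26 list genes higher in LALA nuclear RNA. Centring also took the share of higher among all called units to 48.4% and 52.3% in total and nuclear RNA of siPAP cells and to 76.6% in LALA cells, against 30.4%, 29.1% and 25.3% as deposited, and at a threshold of 1 the LALA share was 60.2%.

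The restriction to own-strand units, chosen after the data were seen, left 57 members. Over all matched members on either strand the median exon number was 7, against 10 for all matched units, and with the longest transcript 19.3% of own-strand members had a single exon, against 2.98% of all own-strand units. The share of antisense units among matched members was 46.1% at 1 FPKM, 18.6% at 5 FPKM, 63.6% at a threshold of 1 and 22.9% after centring, against 1.62%, 0.308%, 0.859% and 0.859% of all matched units. This alternative too was chosen after the data were seen.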

Other observations

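By the same 3 ratios and the same level, 3 of 374 named units of chromosome X would have been members, which the rule left out by its restriction to autosomes. SLC25A53, a mitochondrial carrier gene, had 15.0 FPKM in siPAP total against 4.56 FPKM in control total RNA, and 16.5 in siPAP nuclear and 8.22 in LALA nuclear against 4.91 FPKM in control nuclear RNA. FAM120C had 13.7 against 6.59 FPKM in total RNA, and 14.0 in siPAP nuclear and 12.9 in LALA nuclear against 6.59 FPKM. ZCCHC18 had 3.94 against 2.03 FPKM in total RNA, and 3.43 in siPAP nuclear and 3.48 in LALA nuclear against 1.91 FPKM.

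Of 10 further units whose name is exactly that of a member but had less than 2 FPKM in control total RNA, 6 passed the 3 ratios. They carry the names ABHD16B, MCM9, NRG4, ZFPM2 and, for a pair of them, MTRF1L. Units that share only part of a joined name were not counted, among them 1 named after ZBTB26 with 1.74 FPKM and 1 named SFXN3 with 0.160 FPKM in control total RNA, which also passed.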
